A study of Mus musculus with 6 samples.

Results

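The data are single-cell RNA-seq profiles of mouse melanoma tumours under PD-1 blockade, in which tumours with lowered Slc39a9 are set against tumours with a control hairpin. All cells implanted were Yumm5.2, a cultured mouse melanoma line, and all carried a hairpin (shRNA) against Cdkn2a, the control included, so the effect of that hairpin cannot be measured here. The control group, shCdkn2a with shControl and 200 µg anti-PD1, is 1 line and 1 library. The knockdown group, shCdkn2a with shSlc39a9 and 200 µg anti-PD1, is 2 libraries that come from different lines, 1 for hairpin #1 and 1 for hairpin #2. For each line 350000 selected cells were placed under the skin of the right flank of C57BL/6 mice, antibody was injected 3 times a week once tumours could be felt, and tumours were taken at 0.5 cm3. The labels give neither the age or sex of the mice nor the number of tumours in a library, and nothing says that cells of a line are 1 clone. The same 3 lines treated with 200 µg of control IgG (3 libraries) are used only as a comparison. Barcodes with at least 500 UMIs (unique molecular identifiers, which count molecules rather than PCR copies), at least 300 genes and at most 20% mitochondrial UMIs were taken as cells, which gave 23297 cells from the anti-PD1 libraries of 43843 in the 6 libraries. After removal of doublets 22991 remained, 8734 in the control, 6095 in hairpin 1 and 8162 in hairpin 2.

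Slc39a9 encodes ZIP9, and transporters of the ZIP family move zinc into the cytosol. PD-1 is an inhibitory receptor of activated T cells, and antibodies against it release T cells from that inhibition. Interferon gamma from T and NK cells makes macrophages and tumour cells transcribe chemokines such as Cxcl9 and Cxcl10, which attract further T cells, while chemokines such as Cxcl3 attract neutrophils. Tumour macrophages range from cells that present antigen to scavenging cells marked by genes such as Cd163.

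The promoters of 3 genes on which the results turn are shown from RefSeq on GRCm38.p6, each as 300 bases that run 5′ to 3′ along the strand of the gene, from 250 bases before the start site to 50 after it. The genes are Cxcl9, higher with both hairpins in macrophages, Cxcl3, lower with both in macrophages, and Chac1, lower with both in tumour cells. Capitals mark matches on either strand to TGCNCNC in Cxcl9 and Cxcl3, and to TGATGNAA, the C/EBP-ATF element through which ATF4 acts, in Chac1. TGCNCNC is looser than the core of a metal response element, which is TGCACNC or TGCGCNC, and none of the 3 promoters held that core.
Cxcl9, chr5:92328030-92328329, minus strand: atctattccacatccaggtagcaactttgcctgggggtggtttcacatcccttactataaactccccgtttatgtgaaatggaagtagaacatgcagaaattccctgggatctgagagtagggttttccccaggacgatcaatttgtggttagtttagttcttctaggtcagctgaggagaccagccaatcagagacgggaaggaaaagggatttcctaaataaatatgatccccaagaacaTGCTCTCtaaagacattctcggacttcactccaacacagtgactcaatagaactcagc
Cxcl3, chr5:90785851-90786150, plus strand: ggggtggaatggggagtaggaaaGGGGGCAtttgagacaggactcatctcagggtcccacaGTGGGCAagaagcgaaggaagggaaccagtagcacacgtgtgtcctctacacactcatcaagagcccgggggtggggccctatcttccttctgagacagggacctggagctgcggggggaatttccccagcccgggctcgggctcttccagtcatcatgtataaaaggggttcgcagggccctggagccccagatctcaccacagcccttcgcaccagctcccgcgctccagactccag
Chac1, chr2:119350992-119351291, plus strand: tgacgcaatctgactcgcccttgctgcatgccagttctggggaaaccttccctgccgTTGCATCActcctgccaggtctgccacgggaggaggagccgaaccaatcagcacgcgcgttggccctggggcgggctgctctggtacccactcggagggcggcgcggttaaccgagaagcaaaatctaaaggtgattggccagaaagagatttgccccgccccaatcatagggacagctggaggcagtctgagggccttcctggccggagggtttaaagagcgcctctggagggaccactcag
Of 32544 mouse promoters of that length, 51.3% held TGCNCNC, 25.9% held the stricter core and 3.91% held TGATGNAA. The table had promoters for 6 of the 9 genes named as higher in macrophages, of which 2 (Cxcl9 and Grasp) held TGCNCNC and 1 (Grasp) the core. It had 11 of the 12 named as lower there, of which 8 held TGCNCNC and 2 (Hba-a1 and Hba-a2) the core. In tumour cells it had 7 of the 12 named as higher, with TGCNCNC in 6 and the core in 2 (Mme and Trp53i11), and 11 of the 12 named as lower, with TGCNCNC in 7, the core in 2 (Aqp3 and Btc) and TGATGNAA in 1 (Chac1). These matches describe the letters and show no binding.

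Depth was similar across the anti-PD1 libraries. They held between 58859821 and 83204249 UMIs, with medians of 5663.5 UMIs per cell in the control, 5662 in hairpin 1 and 6219.5 in hairpin 2. Between 63.2% and 80.3% of the barcode names of the smaller library of each pair recurred in the other, with names that followed the order of depth, and cells with the same name fell in the same cluster in 7.45% to 9.34% of cases against 7.15% to 10.6% for the cell next in depth. Tumour cells were set apart from host cells as clusters with Xist and almost no Y-linked transcripts and are called tumour-line cells. This was decided after the data were seen and assumes a female line in male mice, which no label states. The melanoma markers were mostly weak in them: Pax3 was at 58.6, 81.0 and 60.1 CPM (a class's UMIs scaled to a common total, with TMM factors) in control, hairpin 1 and hairpin 2, Mitf at 19.5, 14.1 and 18.1, and Tyr and Pmel at or under 1.24 CPM. Host classes were named by marker genes. Values below are given in the order control, hairpin 1, hairpin 2, and all are from anti-PD1 tumours unless IgG is named.

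Slc39a9 itself (chromosome 12, 80643883 to 80683342 on GRCm38, plus strand) was at 21.9 CPM in control tumour-line cells (95% Poisson interval 20.8 to 23, counting error only), 8.12 with hairpin 1 (7.35 to 8.94) and 11.2 with hairpin 2 (10.4 to 12.0). The intervals do not overlap, and both hairpins were under the control in all 7 tumour-line clusters with enough counts. The edgeR log2 difference was -1.17 ± 0.29 (SE; unadjusted p 0.0093, adjusted p 0.998). In macrophage/monocyte-like cells, which carry no hairpin if they are host cells, Slc39a9 was at 25.6, 23.3 and 25.0 CPM. Cdkn2a, against which all lines carry a hairpin, was at 359.5, 216 and 324 CPM in tumour-line cells. Cd274, which encodes the PD-1 ligand PD-L1, was at 2.16, 2.10 and 2.49 CPM in tumour-line cells and at 80.0, 73.1 and 63.0 CPM in macrophages. Pdcd1, which encodes PD-1, had 0, 2 and 0 UMIs in tumour-line cells.

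The first comparison asks whether the makeup of the tumours differed. Neutrophils, short-lived phagocytes of the innate defence, were 493 of 8734 cells in the control, or 5.64% (exact 95% binomial interval 5.17 to 6.15, counting error only). They were 1.39% with hairpin 1 (1.12 to 1.72) and 1.90% with hairpin 2 (1.61 to 2.22). Both knockdown libraries lay below the control by far more than counting error. With 2 libraries against 1, no permutation p can go below 0.333, so no test is given. The IgG libraries of the same lines had 4.84%, 0.754% and 1.38% neutrophils.

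Fibroblast/pericyte-like cells were also fewer with both hairpins, at 0.801%, 0.328% and 0.306% of cells, and at 0.579%, 0.258% and 0.367% in the IgG libraries. Macrophage/monocyte-like cells were the main host class, at 30%, 33.1% and 26.8% of all cells. As a share of host cells they were at 75.4%, 84.3% and 84.2%, above the control with both hairpins. A lower share of neutrophils raises the share of macrophages, so these shares are not independent.
Dendritic-like cells were at 0.218%, 0.0984% and 0.123%, or 19, 6 and 10 cells, and mast/basophil-like cells at 0.172%, 0.18% and 0.257%, or 15, 11 and 21 cells. Both hairpins lay below the control for the first and above it for the second, with intervals that overlapped with those of the control. Osteoclast-like cells, which carry Ctsk and Acp5, were at 1.49%, 2.89% and 0.747%, on opposite sides of the control. T/NK-like cells were at 0.412%, 0.361% and 0.502%, or 36, 22 and 41 cells, and endothelial cells at 0.847%, 0.820% and 1.11%. Tumour-line cells made up 60.3%, 60.7% and 68.2% of cells, level with the control for hairpin 1 and above it for hairpin 2. Shares of cells also depend on how each class survives digestion, which was not tested.

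**Figure D1:**
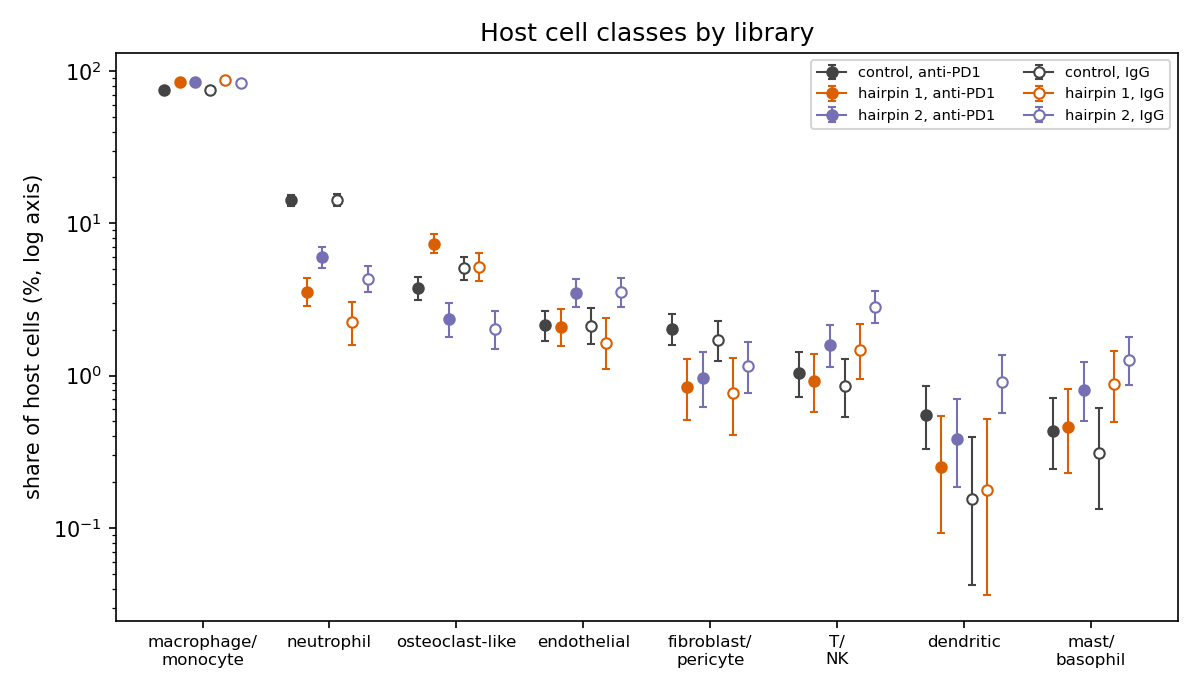
Share of host cells (percent, log axis) held by each host class, with filled points for the 3 anti-PD1 libraries, open points for the 3 IgG libraries and bars for exact 95% binomial intervals (counting error only). Neutrophils stand at 14.2% of host cells in the control with anti-PD1 and at 3.55% and 5.97% with hairpins 1 and 2, and the IgG libraries are ordered the same way.

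Differences in expression were taken from UMI counts summed per library over a class. A gene was called shared higher or shared lower when both hairpin libraries were at least 2-fold above or below the control, counting only genes that averaged 10 CPM and 50 UMIs or more. The averages are over the same libraries that are compared, so a gene low in the control can pass through the hairpin libraries alone. The rule is a description, since both ratios use the same control library. The edgeR quasi-likelihood test of the 2 knockdown libraries against the control, with 1 residual degree of freedom, called 0 genes at an adjusted p under 0.05 in both classes tested (0.0% of 16332 in tumour-line cells and 0.0% of 12619 in macrophages). It gave 518 and 440 genes with an unadjusted p under 0.05, and DESeq2 called 15 and 10 genes. The words higher and lower below therefore describe these 3 libraries.

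In tumour-line cells, Iigp1, Cxcl10 and 3 other interferon-induced genes were among the genes higher with both hairpins, and Cdsn, Lcn2, Angptl4 and Chac1 were among the lower ones. There were 16 shared higher genes of 8999 compared (0.178%) and 15 shared lower (0.167%). Hairpin 1 alone put 209 genes at least 2-fold above and 239 at least 2-fold below the control, against 39 and 23 for hairpin 2, so hairpin 1 tumours stood much farther from the control. A further 2 genes were past 2-fold in opposite directions.

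Among the interferon-induced genes, Iigp1, a GTPase gene of cell-autonomous defence, was at 1.02 CPM in the control (69 UMIs), 12.3 with hairpin 1 (627 UMIs) and 22.2 with hairpin 2 (1611 UMIs). That is 12.0-fold and 21.7-fold over the control, the farthest apart of the shared higher genes by the nearer hairpin (edgeR log2 4.08 ± 0.53, unadjusted p 0.00044, adjusted p 0.998). Iigp1 was higher with both hairpins in all 7 tumour-line clusters with enough counts, a filter that the hairpin libraries alone can pass. Ifi47, another interferon-induced GTPase gene, was at 11.7, 42.7 and 27.3 CPM. Gbp2, a guanylate-binding protein gene, was at 26.9, 54.9 and 54.8 CPM. Cxcl10, a chemokine gene for the T cell receptor CXCR3, was at 14.0, 29.1 and 38.5 CPM. Apol9b, an interferon-inducible apolipoprotein L gene, was at 10.1, 21.1 and 21.9 CPM. Both knockdown libraries were above the control for each of these 5 genes, with hairpin 2 the higher for Iigp1, Cxcl10 and Apol9b and hairpin 1 for Ifi47. In the IgG libraries Cxcl10 was at 16.8, 10.3 and 23.1 CPM, so that hairpin 1 lay below the control there. With clusters weighted as in the control, the log2 differences of Cxcl10 were 0.36 and 1.83, and it was higher with both hairpins in 3 of 7 clusters with enough counts.

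Of 28 interferon gamma response genes, 9 were abundant enough to compare, 4 were shared higher (Iigp1, Ifi47, Cxcl10 and Gbp2) and 0 shared lower. The median log2 difference of the 9 was 0.99 with hairpin 1 and 1.22 with hairpin 2, beside -0.05 and -0.02 over all 8999 genes. Iigp1, at 1.02 CPM in the control, was compared only because it was high in the hairpin libraries. Such a filter tilts the count and the medians of the list upward. In the IgG libraries the medians of the list were 0.67 and 0.47. Type I interferon response genes had 0 shared members of 11, with medians of 0.28 and 0.88. Isg15, a ubiquitin-like interferon-induced modifier, was at 27.5, 28.7 and 75.4 CPM, high only with hairpin 2 among the anti-PD1 libraries. Genes of MHC class I presentation had 0 of 13, with medians of 0.33 and 0.16, and B2m, the light chain of class I molecules, was at 492, 620.3 and 551 CPM.

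Of the other shared higher genes, Nrep, Fbn2 and Ccdc80 were highest with hairpin 1. Nrep, which encodes a neuronal regeneration related protein, was at 9.76, 97.9 and 25.2 CPM. Fbn2, which encodes the microfibril protein fibrillin-2, was at 2.64, 23.7 and 6.58 CPM. Ccdc80, which encodes a matrix protein, was at 3.01, 21 and 6.65 CPM. Hairpin 2 lay between the control and hairpin 1 for all 3, and hairpin 1 was 10.0-fold, 9.01-fold and 6.97-fold over the control. The collagen and matrix list, which holds other genes of the matrix, had 0 shared members of 32, with medians of 0.28 and 0.06.
Capn6, a calpain family gene, was at 9.67, 63.0 and 26.9 CPM, and Osr2, a zinc finger transcription factor gene, at 9.94, 43.3 and 22.0 CPM. Mme, which encodes the membrane peptidase neprilysin (CD10), was at 81.7, 245 and 171 CPM. Capn6, Osr2 and Mme were higher with both hairpins in all 8 tumour-line clusters and also past 2-fold in the IgG libraries (for Mme 88.3, 236 and 184 CPM). Lpar4, a lysophosphatidic acid receptor gene, was at 7.82, 29.1 and 16.8 CPM, and Trp53i11, a p53-inducible gene, at 18.8, 60.2 and 45.3 CPM. Sprr1a, a gene of the cornified envelope of the outer epidermis, was at 7.33, 15.1 and 15.8 CPM, and at 12.9, 9.54 and 4.41 CPM with IgG, where both hairpins lay below the control. The remaining shared higher genes were Mndal and Pla2g16.

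Some shared lower genes are known from epithelia, where Sprr1a, which is higher, also belongs. The keratinocyte markers had 1 shared lower member, Lgals7, of 2 compared. Cdsn, which encodes corneodesmosin of the outer epidermis (chromosome 17, 35552128 to 35557180, plus strand), was at 42.8, 1.12 and 6.40 CPM, or 38.3-fold and 6.68-fold lower. It was lower with both hairpins in 5 of 6 tumour-line clusters with enough counts (edgeR log2 -3.48 ± 0.86, unadjusted p 0.0087, adjusted p 0.998). Aqp3, an aquaporin gene, was at 33.0, 1.71 and 9.5 CPM, and Lgals7, an epithelial galectin gene, at 126, 34.2 and 58.0 CPM. These 3 genes were lowest with hairpin 1.
Several other shared lower genes encode secreted proteins. Lcn2, which encodes the iron-siderophore carrier lipocalin-2, was at 65.1, 3.71 and 23 CPM. Slpi, a secreted protease inhibitor gene, was at 107, 22.7 and 44.2 CPM. Nppb, which encodes a natriuretic peptide, was at 209.9, 28.3 and 96.3 CPM, and Btc, which encodes the ErbB ligand betacellulin, at 19.5, 7.39 and 6.84 CPM. Angptl4, a secreted lipoprotein lipase inhibitor induced by hypoxia and by fatty acids, was at 146, 26.4 and 57.8 CPM. Hairpin 2 again lay between the other libraries, except for Btc. Angptl4 was lower with both hairpins in all 8 tumour-line clusters. Crisp1, a cysteine-rich secretory protein gene, was at 26.5, 3.04 and 6.72 CPM and Abcb1a, a drug efflux pump gene, at 42.1, 9.12 and 16.4 CPM. Lcn2 is also a neutrophil gene. The 16 neutrophil markers together were at 153, 79.5 and 87.3 CPM in tumour-line cells, with Ngp at 0. This sum includes Lcn2 itself and S100a8, which was at 53.4, 6.61 and 29.0 CPM. The rest of the sum was above the control with hairpin 1 and about level with it for hairpin 2. In the control, S100a9 was at 4.81 CPM in tumour-line cells and 8837 CPM in neutrophils. Lcn2 and Slpi were at 522 and 1900 CPM in those neutrophils. The part of neutrophil RNA in Lcn2 and Slpi was not tested. The other shared lower genes were Clec4d, Tinagl1 and Nnmt beside those named below.

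**Figure D2:**
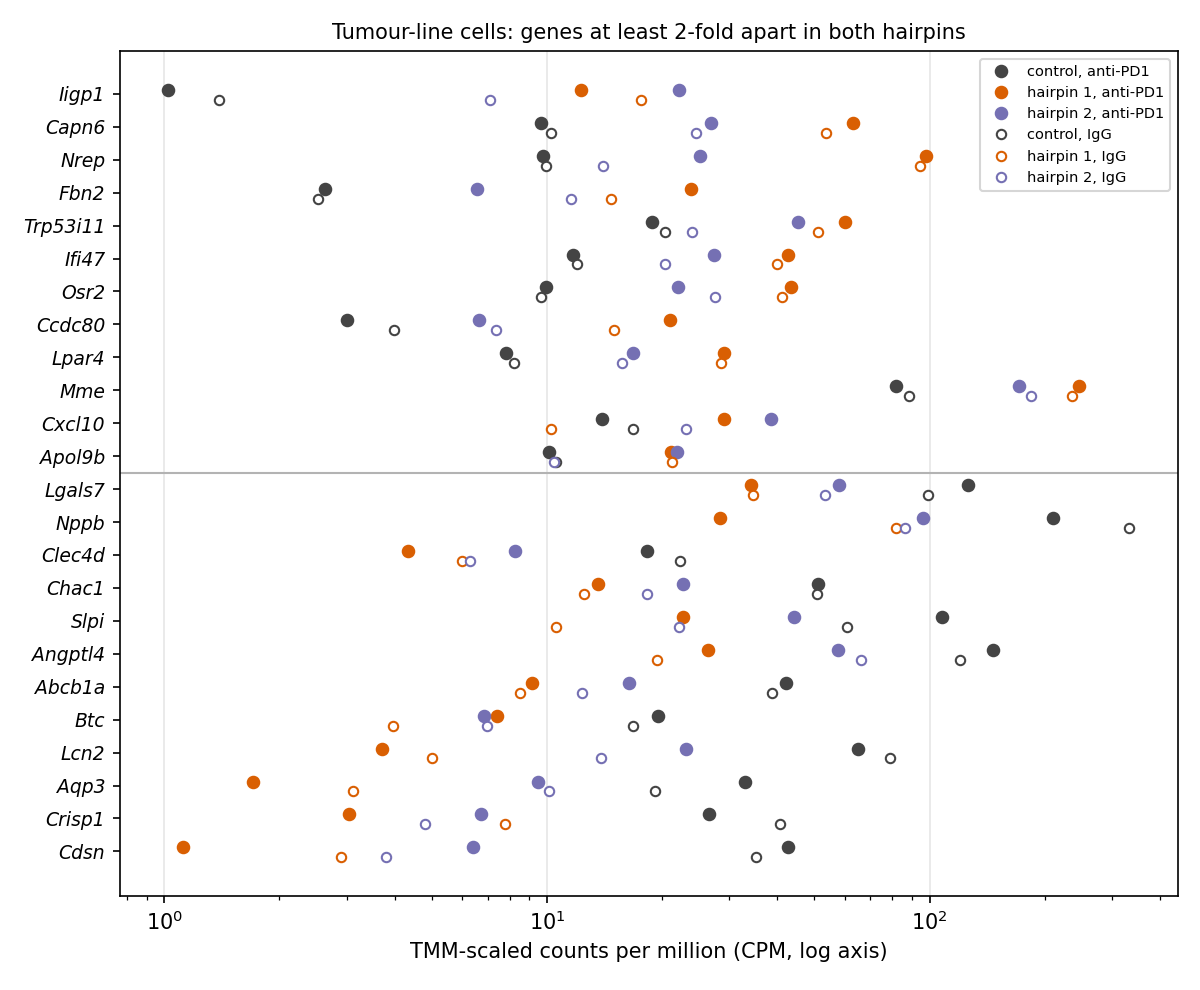
Level in tumour-line cells (TMM-scaled CPM, log axis) of the 12 named shared higher genes, above the grey line, and the 12 named shared lower genes, below it, with filled points for anti-PD1 and open points for IgG libraries, 1 point per library. Control points lie to the left of both hairpins in the upper rows and to the right in the lower rows for anti-PD1, and hairpin 1 is the farther for most genes, while in Iigp1, Cxcl10, Apol9b and Btc hairpin 2 is.

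Of 23 amino acid stress genes under the transcription factor ATF4, 1 was shared lower and 0 higher. It was Chac1, a glutathione-degrading enzyme gene and ATF4 target, whose promoter is printed above with its C/EBP-ATF letters at -193. Chac1 was at 51.1, 13.6 and 22.6 CPM, and at 50.8, 12.5 and 18.2 CPM in the IgG libraries. The medians of the list were -0.59 and -0.44. Atf4 was at 495, 418 and 464 CPM and Cebpb at 315, 134 and 251 CPM. Genes of the unfolded protein response had 0 shared members of 17 and medians of -0.07 and -0.01. Once clusters were weighted as in the control, the Chac1 differences were -0.87 and -0.74, short of 2-fold.

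Of the zinc and metallothionein list, 0 of 17 compared genes were shared, with medians of -0.31 and -0.12. Mt1, a metallothionein gene induced by zinc through metal response elements, was at 876, 329 and 629 CPM, and Mt2 at 844, 269 and 589 CPM. Both hairpins lay below the control for both genes, hairpin 1 by 2.66-fold and 3.13-fold, hairpin 2 by 1.39-fold and 1.43-fold, and neither gene reached the shared rule. The exporter gene Slc30a4 was at 338, 239 and 297 CPM. The NRF2 list had Hmox1, haem oxygenase, as its 1 shared lower member of 23, at 163, 80.2 and 60.4 CPM, while the ferritin gene Fth1 was at 5073, 2103 and 3638 CPM.
Hypoxia and glycolysis genes had 1 shared lower member of 26, Angptl4, and medians of -0.41 and -0.28. Pgk1, a glycolytic kinase gene, was at 1895, 1323 and 1590.4 CPM. NF-kB and inflammatory genes had 1 shared lower member of 11, Lcn2, with medians of -0.75 and -0.44. Ptgs2, the inducible cyclooxygenase, was at 1198, 414 and 885 CPM and the monocyte chemokine gene Ccl2 at 543, 275 and 466 CPM. For these genes hairpin 1 was well below the control and hairpin 2 nearer to it.

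The cell cycle lists had 0 shared members. The 40 G2/M genes had medians of 0.86 and 0.43 and the 30 S phase genes of 0.50 and 0.27, above the control with both hairpins and farther with hairpin 1. Top2a, the mitotic topoisomerase, was at 179, 325 and 247 CPM, and Cdkn1a, which encodes the cell cycle inhibitor p21, at 289, 105 and 221 CPM. The cluster led by mitotic genes held 8.21%, 17.4% and 12.9% of tumour-line cells.

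The tumour-line class was not made of the same clusters in the 3 libraries. The cluster led by Postn, Ogn and Nrep held 7.47%, 45.9% and 14.0% of tumour-line cells, the one led by Cdsn and Aqp3 16.7%, 5.16% and 9.40%, and the one led by Crct1, Pgf and Hmox1 16.1%, 6.48% and 9.96%. When the CPM of each cluster was weighted by the mix of the control library, 7 of the 16 shared higher genes kept 2-fold with both hairpins and 16 kept their sign, and 5 of the 15 shared lower genes kept 2-fold and 14 their sign. With those weights Iigp1 was at log2 3.81 and 4.38, and Cdsn at -3.86 and -2.07. Hmox1 was then at 0.11 with hairpin 1 and -0.93 with hairpin 2.

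The same lines in separate IgG-treated tumours gave 10 shared higher genes of 8989 compared (0.111%) and 33 shared lower (0.367%). Of the 16 shared higher genes with anti-PD1, 3 were also shared higher with IgG (18.8%, and 30% of the IgG list), and of the 15 shared lower genes 10 were (66.7%, and 30.3% of the IgG list). With IgG, Iigp1 was at 1.39, 17.6 and 7.11 CPM, above the control with both hairpins. Its mean with IgG was under 10 CPM, so it was not among the genes compared there. No gene was shared in opposite directions. Whether a difference is itself different under the 2 antibodies needs the interaction test. Fitted without the pairing by line, that test called 0 of 16622 genes in edgeR (0.0%, 40 with an unadjusted p under 0.05) and 0 in DESeq2. With the line as a block, 1 gene was called, Gal, which encodes galanin (log2 -3.41, adjusted p 0.0019 in edgeR), at 20.8, 0.0196 and 3.97 CPM with anti-PD1 and 13.4, 0.0678 and 27.5 CPM with IgG.

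In macrophage/monocyte-like cells the chemokine gene Cxcl9 was higher and Cxcl3 lower with both hairpins, and the 2 hairpins gave close values for both. Cd163 and Chil3 were lower as well. There were 9 shared higher genes of 8872 compared (0.101%) and 24 shared lower (0.271%), beside medians of 0.00 and -0.01 over all genes. Hairpin 1 alone had 129 genes above and 105 below 2-fold, and hairpin 2 had 30 and 55.

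Cxcl9 (chromosome 5, 92321347 to 92328079, minus strand) encodes an interferon gamma-induced ligand of CXCR3. It was at 18 CPM in the control (95% Poisson interval 15.3 to 21.1, 154 UMIs), 107 with hairpin 1 (100.0 to 115, 765 UMIs) and 100.0 with hairpin 2 (92.5 to 108, 660 UMIs). The hairpins overlapped with each other and not with the control, at 5.98-fold and 5.56-fold over it. The edgeR log2 difference was 2.53 ± 0.18 (unadjusted p 1.2e-05, adjusted p 0.0736), and with all 6 libraries in the fit the adjusted p for the same contrast was 0.0459. That fit of 6 libraries left out the pairing by line. Of 11 macrophage clusters, 6 had enough counts in at least 1 library, a filter that the hairpin libraries alone can pass. Cxcl9 was higher with both hairpins in all 6. In the IgG tumours it was at 17.3, 94.6 and 81.8 CPM, the same order with the same gap. In tumour-line cells it had 3, 68 and 82 UMIs and in neutrophils 0 in all 3 libraries.

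Other interferon gamma response genes followed in part. Iigp1 was at 29.3, 67.0 and 63.5 CPM and Gbp2 at 42.5, 88.5 and 85.9 CPM, both about equally high with the 2 hairpins. Together with Cxcl9 they were the 3 shared higher members of 22 compared, with 0 lower. The list as a whole had medians of 0.03 and 0.45, so that with hairpin 1 its middle member was level with the control. The immunoproteasome gene Psmb8 was at 279, 343 and 394 CPM. Type I interferon genes had 0 shared of 23 and medians of -0.63 and 0.38, on opposite sides of the control. Rsad2, an antiviral gene of that list, was at 227, 92.0 and 181 CPM.

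Antigen presentation genes had 0 shared members in both classes of MHC. The 12 class II genes had medians of 0.11 and 0.77. Cd74, the invariant chain, was at 2073, 2791 and 4527 CPM and H2-Ab1, a class II beta chain, at 1796, 1963 and 3748 CPM. Both were high with hairpin 2 and nearer to the control with hairpin 1. The 22 class I genes had medians of 0.13 and 0.34.
The remaining shared higher genes had other roles. Ccnd2, which encodes the G1 cyclin D2, was at 47.5, 132 and 108 CPM. Axl, a receptor kinase gene for uptake of dying cells, was at 40.9, 86.4 and 96.8 CPM. Slamf8, a receptor gene of the SLAM family, was at 5.49, 13.2 and 15.9 CPM. Each was at least 2-fold above the control with both hairpins with IgG as well. Ighm, an immunoglobulin heavy chain gene and B cell marker, was at 9.69, 22.6 and 23.9 CPM, Grasp at 12.1, 28.7 and 24.9 CPM and the histone chaperone gene Asf1b at 10.2, 28.0 and 21.5 CPM.

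Cxcl3 (chromosome 5, 90786103 to 90789600, plus strand) encodes a ligand of CXCR2, the receptor through which neutrophils are attracted. In macrophages it was at 141 CPM in the control (133 to 149, 1207 UMIs), 32.9 with hairpin 1 (28.8 to 37.4, 234 UMIs) and 31.7 with hairpin 2 (27.5 to 36.3, 209 UMIs). The hairpins were nearly equal, 4.29-fold and 4.45-fold under the control (edgeR log2 -2.12 ± 0.14, unadjusted p 1e-05, adjusted p 0.0736, and 0.0309 with all 6 libraries in the fit). The pairing by line was again left out of the fit of 6 libraries. Cxcl3 was lower with both hairpins in all 6 clusters with enough counts, and in the IgG tumours it was at 149, 18.9 and 18.9 CPM. Neutrophils carried far more Cxcl3, at 1487, 2021 and 1017 CPM of their own class.
Of the 7 neutrophil-recruiting ligand genes compared, Cxcl3 and Ppbp were shared lower and 0 higher, with medians of -0.47 and -0.93. Ppbp, which encodes the CXCR2 ligand made from platelet basic protein, was at 220.4, 99.1 and 77.1 CPM. Of 9 clusters with enough counts, Ppbp was lower with both hairpins in 5 and higher with both in 1. Cxcl2 was at 1303, 943 and 683 CPM and Pf4, platelet factor, at 1787, 1414 and 1379.5 CPM. Both hairpins lay below the control for these 4 named genes, and the values of the other genes compared are not given. In the NF-kB and inflammatory list Cxcl3 and Saa3 were shared lower of 20. Saa3, an acute-phase gene, was at 174, 20.8 and 84.9 CPM, and Il1b, which encodes the cytokine IL-1 beta, at 2056, 1507 and 2061 CPM. Saa3 was lower with both hairpins in 4 of 7 clusters with enough counts.

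Of 16 haem and iron genes, 3 were shared lower. Cd163 (chromosome 6, 124304656 to 124330527, plus strand), which encodes the receptor for haemoglobin bound to haptoglobin, was at 145 CPM in the control (137 to 153), 25.6 with hairpin 1 (22.0 to 29.6) and 34.9 with hairpin 2 (30.5 to 39.7). It was 5.67-fold and 4.16-fold lower (edgeR log2 -2.26 ± 0.21, unadjusted p 5.7e-05, adjusted p 0.241), lower in all 8 clusters with enough counts, and at 157, 25.1 and 35.3 CPM with IgG. Slc40a1, the iron exporter ferroportin, was at 74.5, 16.9 and 35.5 CPM. Spic, the transcription factor of iron-recycling macrophages, was at 35.1, 14.3 and 16.4 CPM. Among clusters with enough counts, Slc40a1 was lower with both hairpins in 5 of 7 and Spic in 4 of 6. The list had 0 shared higher members and medians of -0.06 and -0.23.
Of 18 alternative activation genes, Chil3, Cd163 and Lyve1 were shared lower and 0 higher, with medians of -0.29 and -0.46. Not all such genes were lower. Retnla, too low to compare, was at 2.69, 10.4 and 10.2 CPM, above the control with both hairpins, and at 0.648, 0 and 0 CPM with IgG. Arg1 was at 1491, 2553 and 729 CPM, on opposite sides of the control. Chil3 (chromosome 3, 106147554 to 106167564, minus strand), a chitinase-like gene of monocytes and alternatively activated macrophages, was at 362, 23.5 and 98.6 CPM, and lower with both hairpins in all 7 clusters with enough counts. Lyve1, a hyaluronan receptor gene of perivascular macrophages, was at 91.9, 32.9 and 36.5 CPM. Mrc1, the mannose receptor, was at 2290.1, 1527 and 1879.8 CPM, below the control with both hairpins by less than 2-fold.

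A further group of shared lower genes is on the marker lists of other cell types. S100a8, S100a9, Cxcr2, Mmp9 and Mmp8 were 5 of the 8 neutrophil markers compared. Mmp9 is on the osteoclast-like list as well. Cxcr2 was at 39.5, 0.984 and 5.15 CPM in macrophages against 2167, 1824 and 1767 CPM in neutrophils, and S100a8 was at 36.5, 2.11 and 8.03 CPM against 3369, 2884 and 2267 CPM. Mmp8 was at 83.8, 28.0 and 32.4 CPM against 444, 153 and 244 CPM. The neutrophil marker Retnlg, too low in macrophages to compare, was at 1.40, 0.141 and 0.303 CPM against 1103, 638 and 522 CPM. The 16 markers summed to 839, 179 and 404 CPM in macrophages (836, 164 and 379 with IgG) and to 29139, 23663 and 22501 CPM in neutrophils, and Ly6g, Camp and Ngp were at 0 in macrophages. The sum was highest in the library with the most neutrophils. Cxcl3, Slpi, Lrg1 and the other neutrophil-expressed genes above were highest in the same library, and the part of neutrophil RNA in them was not tested. Hbb-bs, Hba-a1 and Hba-a2, the globin genes of red cells, were at 95.8, 50.1 and 50.5 CPM in the control, 11.8, 7.87 and 7.31 with hairpin 1, and 3.49, 1.21 and 1.97 with hairpin 2. Hbb-bs and Hba-a2 were each lower with both hairpins in 1 of 2 clusters with enough counts. The 6 erythroid markers summed to 224, 29.5 and 7.27 CPM with anti-PD1 and to 9.07, 5.64 and 5.12 CPM with IgG. In bulk sums of a class, fewer cells that express a gene and less RNA per cell cannot be told apart.

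**Figure D3:**
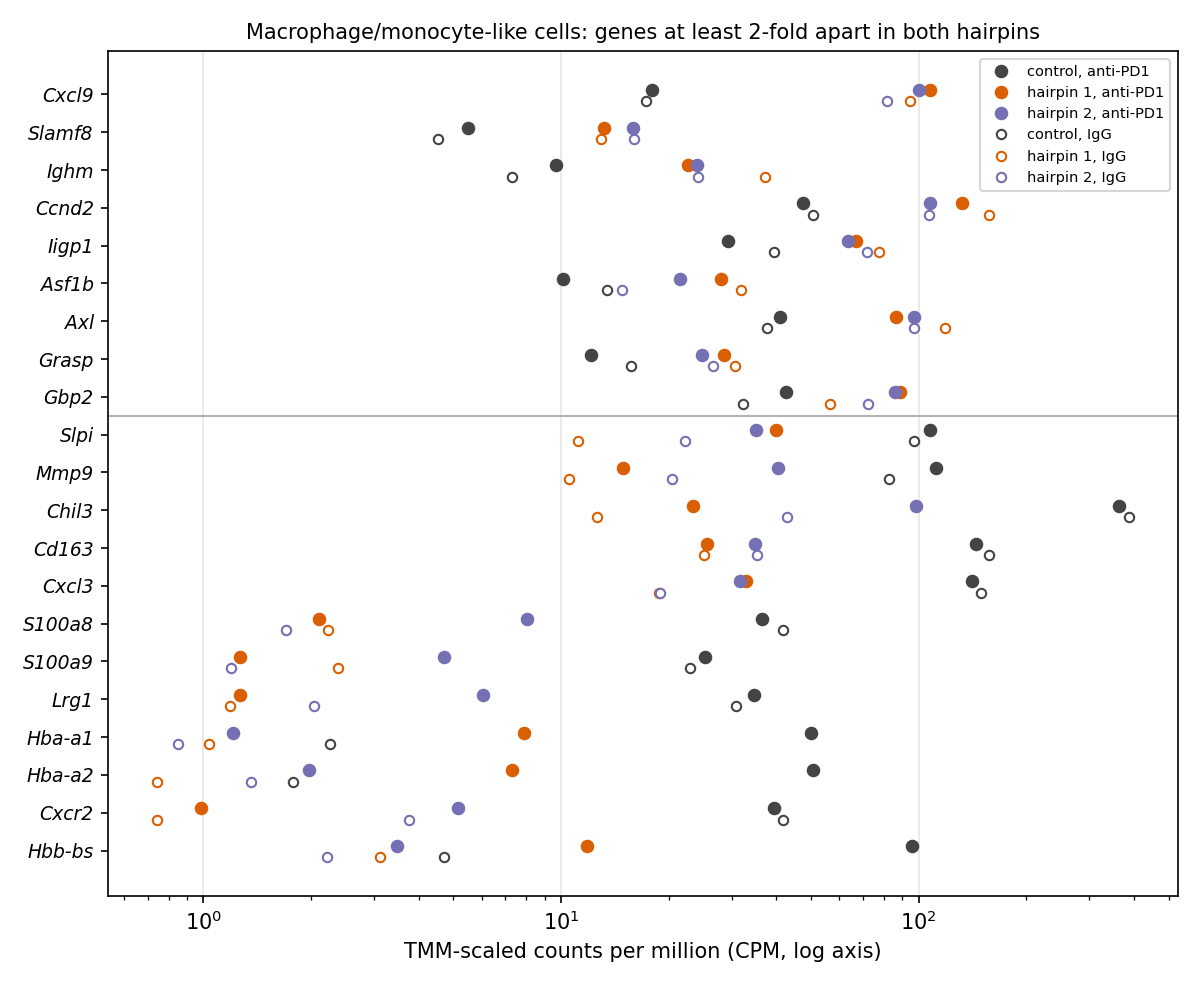
Level in macrophage/monocyte-like cells (TMM-scaled CPM, log axis) of the 9 shared higher genes, above the grey line, and the 12 named shared lower genes, below it, with filled points for anti-PD1 and open points for IgG libraries, 1 point per library. For Cxcl9, Cxcl3 and Gbp2 the 2 hairpins nearly coincide with anti-PD1, while for Chil3 they stand at 23.5 and 98.6 CPM. The 3 globin genes are high in the control with anti-PD1 but not in the control with IgG.

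The cell cycle lists in macrophages also had 0 shared members, with medians above the control that were farther with hairpin 1. Mki67 was at 146, 341 and 157 CPM and Top2a at 101, 295 and 139 CPM. The 38 G2/M genes had medians of 1.20 and 0.21 and the 28 S phase genes of 0.94 and 0.36. Glycolysis and hypoxia genes had 0 shared of 26 and medians of 0.12 and -0.35, on opposite sides of the control. Metallothionein and zinc genes had 0 shared of 19, and Mt1 was at 173, 136 and 132 CPM.

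**Figure D4:**
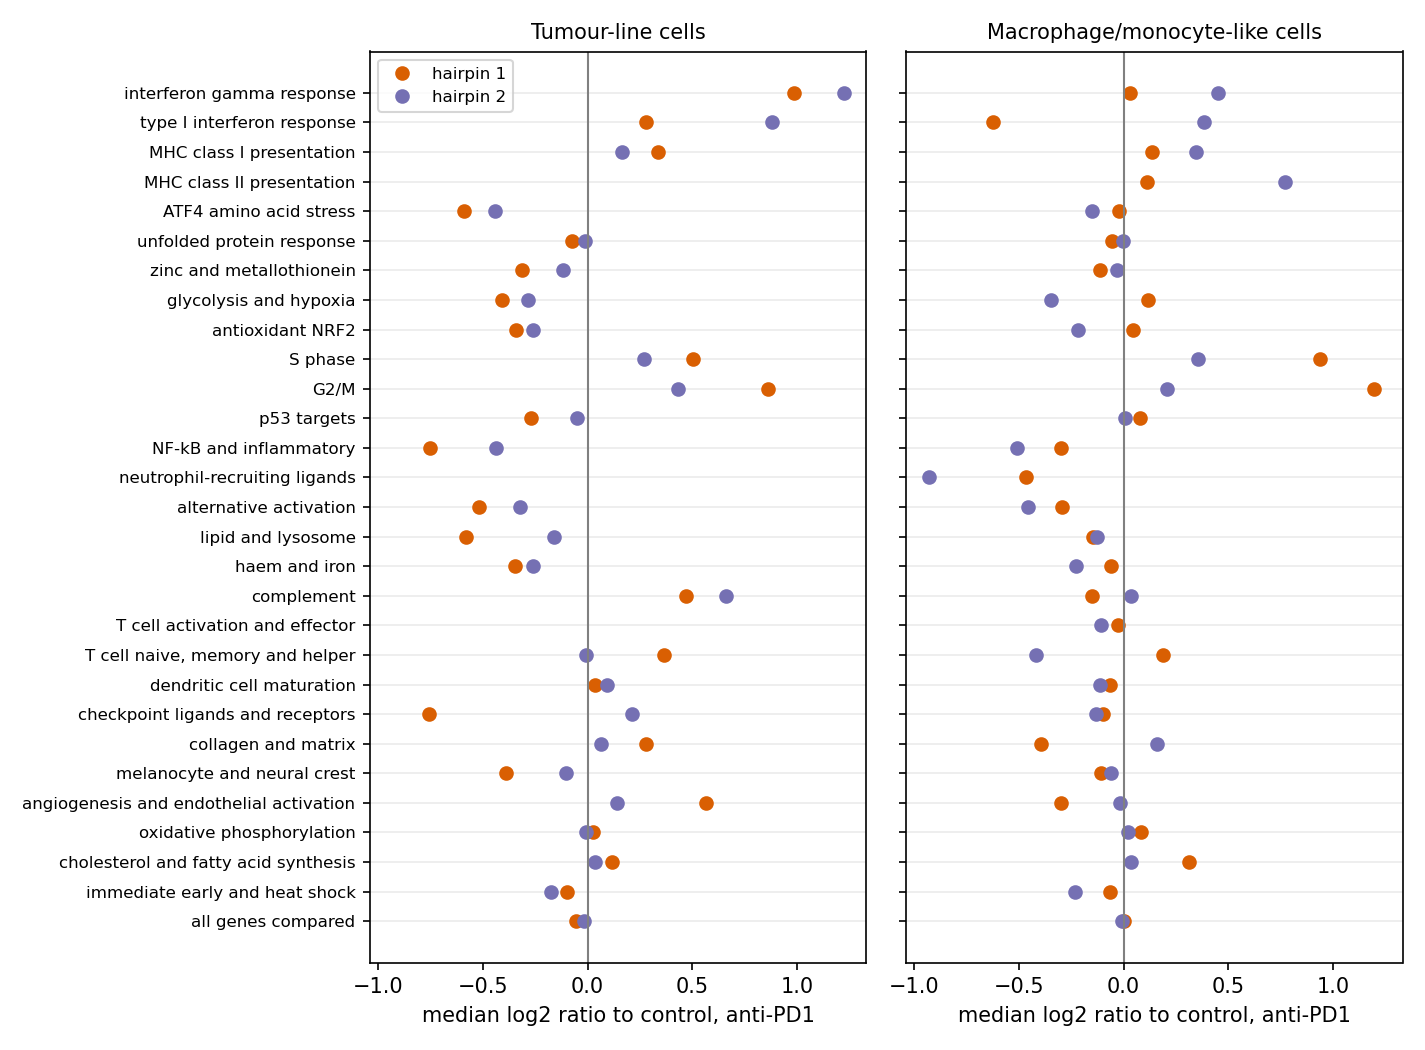
Median log2 ratio of each hairpin library to the control with anti-PD1 for each gene list (rows), in tumour-line cells (left) and macrophage/monocyte-like cells (right), with no point where fewer than 4 genes of a list were compared. In tumour-line cells the interferon gamma list lies at 0.99 and 1.22 and the amino acid stress list at -0.59 and -0.44, and in macrophages the neutrophil-recruiting ligands lie at -0.47 and -0.93.

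The macrophage class too was made of different clusters. The cluster led by Chil3 and Ccr2 held 13.8%, 3.07% and 6.36% of the class, the one led by Lyz2, F13a1 and Mrc1 14.9%, 6.94% and 7.04%, and the 3 led by MHC class II genes together 20.6%, 21.2% and 42.0%, level with the control for hairpin 1. With the mix of the control library, 3 of the 9 shared higher genes kept 2-fold with both hairpins and 9 kept their sign, and 12 of the 24 shared lower genes kept 2-fold and 23 their sign. Cxcl9 was then at log2 2.35 and 1.73, Cxcl3 at -1.41 and -1.04, Cd163 at -1.89 and -1.50, and Slpi at 0.41 and -0.73. Slpi was lower with both hairpins in 1 of 4 clusters with enough counts.

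With IgG, macrophages had 21 shared higher genes of 8862 compared (0.237%) and 36 shared lower (0.406%). Of the 9 shared higher genes with anti-PD1, 5 were shared higher with IgG (55.6%, and 23.8% of the IgG list). Of the 24 shared lower genes 17 were shared lower with IgG (70.8%, and 47.2% of the IgG list). The interaction test, again without the pairing by line, called 0 of 12830 genes in edgeR (0.0%, 69 with an unadjusted p under 0.05) and 0 in DESeq2. With the line as a block, which has 1 residual degree of freedom, edgeR called 46 of 12830 genes. Of these, 37 had a less negative or more positive knockdown difference under anti-PD1 and 9 had the reverse.
Of the 34 calls in the first direction with enough counts, 30 were higher with anti-PD1 than with IgG in both hairpin lines, and in 29 the control was lower with anti-PD1. The same libraries picked these genes for a larger rise in the hairpin lines than in the control. Both counts therefore follow in part from the selection, and the shares over all genes were not counted. Saa3 was at 137, 5.35 and 15.2 CPM with IgG and at 174, 20.8 and 84.9 CPM with anti-PD1. Arg1, the arginine-degrading enzyme of myeloid cells, was at 1468, 1799 and 345 CPM with IgG and at 1491, 2553 and 729 CPM with anti-PD1. Both hairpin lines were the higher with anti-PD1 for these 2 genes.

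**Figure D5:**
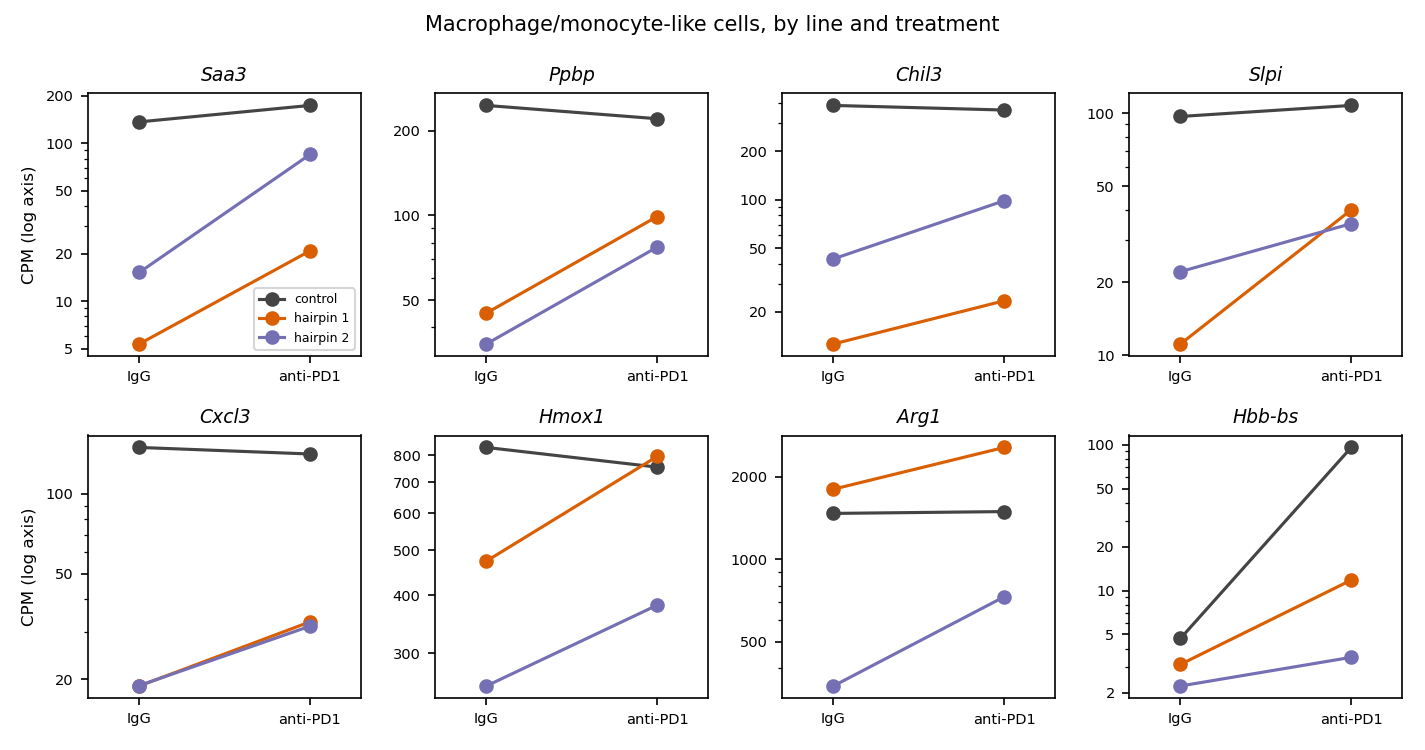
Level in macrophage/monocyte-like cells (CPM, log axis) of 8 genes called by the interaction test with the line as a block, 1 line of the plot per cell line from IgG to anti-PD1, each point being 1 library. Both hairpin lines slope upward in the first 7 plots while the control moves less, and Hbb-bs is steepest in the control, from 4.70 to 95.8 CPM.

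Smaller classes gave few shared genes. In endothelial cells 1 of 1420 genes was shared higher (0.0704%) and 0 shared lower (0.0%). It was Aplnr, the apelin receptor gene of sprouting vessels, at 170.2, 362 and 355 CPM (54, 100 and 158 UMIs). Cxcl9 and Iigp1 in endothelial cells were high only with hairpin 2 among these libraries, with 12, 0 and 181 UMIs and 40, 14 and 428 UMIs. In neutrophils 4 of 1155 genes were shared higher (0.346%) and 3 shared lower (0.26%). Ifi204, an interferon-inducible DNA sensor gene, was at 151, 323 and 650.0 CPM, and Xbp1, a transcription factor gene of the secretory pathway, at 533, 162 and 183 CPM. Steap4, a metalloreductase gene, was at 445, 171 and 194 CPM. Col3a1, a fibroblast collagen gene, was shared higher there at 90.9, 521 and 294 CPM, from 50, 58 and 53 UMIs. In tumour-line cells Col3a1 was at 629.8, 1599 and 828 CPM, and the part of tumour RNA in its neutrophil level was not tested. Cd274 in neutrophils was at 622, 709.7 and 1039 CPM.

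In osteoclast-like cells 5 of 2919 genes were shared higher (0.171%) and 9 shared lower (0.308%). Lyz2, the macrophage lysozyme, was at 105, 397 and 361 CPM, and Ms4a7, a macrophage membrane gene, at 65.8, 146 and 190 CPM. The lower genes included Dkk2, a Wnt antagonist gene, at 286, 14.0 and 38.0 CPM, Grem1, a BMP antagonist gene, at 414, 32.9 and 175 CPM, Hmga2 at 220.4, 39.9 and 87.3 CPM and Tm4sf1 at 196, 27.0 and 83.5 CPM. These 4 genes are abundant in tumour-line cells, where Grem1 was at 4062, 1795 and 3565 CPM and Dkk2 at 999.8, 859 and 1446 CPM, and the part of tumour RNA was not tested. Hba-a1 passed the rule with 1, 195 and 1 UMIs only because counts under 3 were set to 3, which weighs more in the smaller hairpin 2 sum, and it is not read as shared.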

How the data were processed

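Single-cell libraries of dissociated tumours were analysed from the deposited matrices. Libraries were made with a single-cell RNA-seq Benchtop kit, per the labels. The deposited values are the authors' raw UMI counts per gene and barcode, for which the submitters' processing notes name Cell Ranger 7.0.1 and the build mm10. Of the 23349 barcodes in the anti-PD1 matrices, 52 failed the limits on genes or mitochondrial UMIs. Scrublet in scanpy 1.11.5 (expected rate 0.06) marked 1.21% to 1.40% of cells as doublets, which were removed. Cells were clustered with 30 principal components of 2000 variable genes, 15 neighbours and Leiden resolution 1. Clusters with Xist and almost no Y-linked UMIs were taken as tumour-line cells. Host cells were then clustered again and named by markers, and a host cluster over 20 CPM of Xist stayed unnamed.

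For each library the UMI counts of a class were added up, scaled by TMM and tested with edgeR 4.0.16 in R 4.3.3 (filterByExpr, quasi-likelihood F test, Benjamini-Hochberg adjustment over all genes tested, threshold 0.05), with DESeq2 1.42.0 as an alternative. Levels are given as CPM of these sums, so all are relative to the class. For the shared rule, counts under 3 were set to 3. The replicates are different cell lines and not repeats of a line, so p-values measure the spread between these libraries. A gene was compared within a cluster where each library had at least 20 cells and a library had at least 20 UMIs of it. A cluster can thus enter through the libraries where the gene is high. The clusters split the same libraries that selected the gene, so their agreement is no independent support. Classes with at least 50 cells and 100000 UMIs in each anti-PD1 library received the shared rule. Named genes were Slc39a9, Cdkn2a, Pdcd1 and Cd274, up to 12 shared genes in each direction in tumour-line and macrophage cells and 4 in other classes, ranked by the nearer hairpin, and up to 4 members of each of 28 gene lists, shared members first and then the most abundant. Other genes were named after their values were seen. Y-linked, mitochondrial and ribosomal genes and unnamed gene models were left out. The comparison, gene lists and markers were chosen with earlier results of these data known. Gene positions come from GENCODE release M21 (30934 of 31053 identifiers found) and promoters from RefSeq. 1 of the searched motifs is not reported here.

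The same line gives the pairing of anti-PD1 with IgG libraries. Deviations of same-hairpin libraries from their group means correlated across genes at 0.642 in tumour-line and 0.488 in macrophage cells. The main interaction fit left this pairing out, and the line was used as a block only in the alternative fit. The fits and the shared rule were tested on simulated data. Settings varied were the fold, the level filter, the scaling, doublets, thinning to 2000 UMIs per cell, clustering resolution, the clusters used and the libraries. The weighting by cluster mix, the values within clusters, the stricter metal response element core and the second clustering of host cells were added after seeing the data.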

Additional observations from a re-analysis of the deposited data

Results flagged for a closer look

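In macrophage/monocyte-like cells, a test of whether the knockdown difference is itself different between anti-PD1 and IgG, with the line as a block, called 46 genes in edgeR (1 residual degree of freedom, so that the spread used rests mostly on other genes). The same test without the block called 0 of 12830 genes, with 69 at an unadjusted p under 0.05, and DESeq2 called 0. In tumour-line cells the blocked test called 1 gene, Gal. The log2 difference between the treatments of the knockdown difference was 1.98 for Saa3, 1.68 for Ednrb, 1.46 for S100a8, 1.3 for Ppbp, 1.21 for Chil3, 1.06 for Slpi, 0.86 for Cxcl3 and 0.81 for Hmox1. For these 8 genes both hairpin lines were nearer to the control under anti-PD1 than under IgG, though for S100a8 hairpin 1 was at 2.23 CPM with IgG and 2.11 CPM with anti-PD1. That direction follows in part from the test that selected them. Cxcl3 was 18.9 and 18.9 CPM with IgG and 32.9 and 31.7 CPM with anti-PD1 in the hairpin lines, against 149 and 141 CPM in the control, so it remained low with both antibodies. The difference was -2.83 for Hbb-bs and -2.65 for Hba-a2. These globin genes were at 95.8 and 50.5 CPM in the control with anti-PD1 and at 4.70 and 1.78 CPM in the control with IgG. With hairpin 1 they were at 11.8 and 7.31 CPM with anti-PD1 and at 3.12 and 0.742 CPM with IgG, a smaller rise. In osteoclast-like cells with anti-PD1, Hbb-bs was at 394 CPM with hairpin 1 and 9.23 in the control. Each line and treatment is 1 library, and the part of tumour-to-tumour variation was not tested.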

How the results depend on the processing

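DESeq2 size factors, library totals without TMM, kept doublets, thinned cells and clusters free of other markers left the 4 counts of shared genes within 1.5-fold. Single named genes were less stable. With thinned cells 9 macrophage genes were marked as moved and 12 as the same, and 4 and 20 tumour-line genes. Clusters free of other markers moved 5 tumour-line genes and left 19, and library totals moved 2 tumour-line genes and 1 macrophage gene. Other settings moved the 4 counts as follows, for tumour-line higher, tumour-line lower, macrophage higher and macrophage lower genes, from 16, 15, 9 and 24. At 1.5-fold there were 104, 73, 71 and 75, and at 3-fold 1, 3, 1 and 10. With a mean of 1 CPM there were 93, 60 and 14 for the first 3, and with a mean of 50 CPM 1, 6, 5 and 10. The IgG libraries gave 10, 33 and 21 for the first 3. With clusters weighted as in the control, a setting chosen after seeing the data, there were 10, 6, 3 and 12. With 1 hairpin left out, so that the other alone decided, the ranges were 39 to 209, 23 to 239, 30 to 129 and 55 to 105, the higher numbers coming from hairpin 1 alone.

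The edgeR count of 0 in tumour-line cells became 15 with DESeq2 and 325 with no filter, and in macrophages 10 with DESeq2, 80 with no filter and 2 (Cxcl3 and Cxcl9) with all 6 libraries. Leaving out 1 knockdown library in that fit, with the lone one assumed to vary like the other groups, gave 0 in tumour-line cells and 0 to 6 in macrophages, the 6 without hairpin 1. The interaction count of 0 became 1 in tumour-line cells and 46 in macrophages with the replicate block, and 5 in macrophages with no filter. The anti-PD1 fits of 3 libraries hold 1 treatment, so the block could not be fitted there. The fits with all 6 libraries, or with 1 left out, took the libraries of a line as independent. Each line is either control or knockdown, so no block could be fitted beside that contrast. The causes were not tested.

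As shares of host cells, control, hairpin 1 and hairpin 2 had 75.4%, 84.3% and 84.2% macrophages, 14.2%, 3.55% and 5.97% neutrophils, 2.02%, 0.835% and 0.963% fibroblasts, 3.75%, 7.35% and 2.35% osteoclast-like cells, 2.13%, 2.09% and 3.50% endothelial cells, 1.04%, 0.919% and 1.58% T/NK cells, 0.548%, 0.251% and 0.385% dendritic cells and 0.432%, 0.459% and 0.809% mast cells. At resolution 0.5, osteoclast-like cells were 2.46% of all hairpin 1 cells. Cxcl10 in tumour-line cells with the IgG libraries, and Slpi in macrophages and Hmox1 in tumour-line cells with the control's mix, lay on opposite sides of the control with the 2 hairpins, hairpin 1 having turned. So did Gbp2 and Apol9b in tumour-line cells with the IgG libraries, hairpin 2 having turned, at -0.12 and -0.02 on the log2 scale. Sprr1a lay below the control with both hairpins in the IgG libraries. The control is 1 line in 1 library per treatment, so line and knockdown cannot be told apart in any result. Depth limits the smaller classes most, with 85 neutrophils and 22 T/NK cells in hairpin 1.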

Other observations

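Classes too small for the shared rule are given as UMI counts in the order control, hairpin 1 and hairpin 2, with anti-PD1. T/NK-like cells (36, 22 and 41 cells) held 78417, 30225 and 106405 UMIs. Gzmb, the cytotoxic protease granzyme B, had 90, 43 and 126 UMIs, or 1149, 1423 and 1184 CPM, about level between the libraries. Ifng, interferon gamma, had 3, 5 and 34 UMIs, which is 38.3 CPM (exact 95% Poisson interval 7.89 to 112), 165 (53.7 to 386) and 320 CPM (221 to 447). Cd8a, the co-receptor of cytotoxic T cells, had 3, 4 and 20 UMIs, or 38.3 CPM (7.89 to 112), 132 (36.1 to 339) and 188 (115 to 290). Hairpin 2 was above the control beyond counting error for both, and the interval of hairpin 1 overlapped with both others. Pdcd1, which encodes the receptor that the antibody blocks, had 6, 2 and 21 UMIs, and Foxp3, the factor of regulatory T cells, 18, 4 and 24 UMIs, or 230, 132 and 226 CPM.

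Fibroblast/pericyte-like cells (70, 20 and 25 cells) held 271550, 71810 and 75040 UMIs, so their raw counts do not compare directly. They differed in Rgs5 and Pdgfra. Rgs5, a pericyte gene, had 22, 79 and 366 UMIs, or 81.0 CPM (50.8 to 123), 1100 CPM (871 to 1371) and 4877 CPM (4390 to 5404). Col1a1, the fibroblast collagen, had 3899, 601 and 591 UMIs, and Pdgfra, a fibroblast receptor gene, 175, 19 and 14 UMIs, or 644 CPM (553 to 747), 265 (159 to 413) and 187 (102 to 313). Both hairpin libraries were above the control for the pericyte gene and below it for Pdgfra, beyond counting error. With 1 control library this has no replicate check. The intervals count UMIs and not cells, and how many cells supplied the UMIs was not counted. Other pericyte markers are not given.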
